A study of Mus musculus with 4 samples.

Results

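The genes described here are 10 mouse genes of the contractile and actin-binding apparatus that smooth muscle shares in part with fibroblasts: *Acta2*, *Actg1*, *Actg2*, *Tagln*, *Tagln2*, *Cnn1*, *Cnn2*, *Cnn3*, *Cald1* and *Lmod1*. Every transcript of these genes that was tested for an effect of *Setd2* knockdown was taken, which gave 18 of the 34200 transcripts and 10 of the 21945 genes in the authors' deposited table. The gene group was selected on measured values of this comparison, the lower levels of *Acta2*, *Tagln* and *Cnn2* after the knockdown. The values of this comparison, and every call of a member by any test, are therefore given as a description and test nothing.

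The cells were NIH/3T3, an immortalised line of mouse fibroblasts. Knockdown (KD) samples were co-transfected with a pair of siRNAs against *Setd2*, and wild type (WT) samples received Scrambled siRNA, so that WT cells were transfected too. The siRNA was used at 10 nM in both groups, RNA was taken 48 h after transfection, and stranded libraries were made from polyadenylated RNA. The series holds 2 KD and 2 WT libraries, and the deposited tables hold the fitted comparison of these 4 libraries rather than the counts of each. SETD2 is the histone methyltransferase that trimethylates lysine 36 of histone H3 along the body of transcribed genes.

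Smooth muscle contracts by sliding myosin along actin filaments, and its actin isoforms, together with proteins that bind these filaments, are used as markers of the contractile state. ACTA2 (smooth muscle α-actin) is also the hallmark of activated fibroblasts, or myofibroblasts, in which it is built into stress fibres. Many of these genes carry CArG boxes, the binding motif of serum response factor (SRF), whose cofactors of the myocardin family (MRTFs) are held in the cytoplasm by monomeric actin and released when actin polymerises. The close relatives ACTG1, TAGLN2 and CNN3 are found in most non-muscle cells.

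Levels are given as normalised estimated counts, computed for each group from the deposited mean and effect, and a log2(fold change) compares KD with WT, with its standard error (SE) as deposited. A transcript was called when the deposited q-value of Sleuth's likelihood ratio test, adjusted over all transcripts, was under 0.05, unless another test is named. Since no column holds a single library, the spread within groups was taken from the deposited variance, which fixes the largest difference that was possible between the 2 libraries of a group and the least distance that was possible between the nearest KD and WT libraries. Nothing in the labels says that libraries of a group came from separate cultures, so this spread may be technical. *Setd2* itself, on the same scale, had a level of 923 in KD and 3680 in WT, a log2(fold change) of -1.99 (SE 0.09). Of 14 fibroblast markers 12 had tested transcripts, with gene levels up to 388093 in KD and 346235 in WT, and after *Lum*, at 5.45 and 8.93, the lowest in each group was *Pdgfrb*, at 3501 and 2723. These markers moved in both directions: 7 of their transcripts, of *Pdgfra*, *Pdgfrb*, *Fn1* and *Dcn*, were called higher, and 3, of *Col1a1*, *Col1a2* and *Col3a1*, were called lower. *Col3a1* had the largest called fall, at 4778 in KD and 9043 in WT, and a transcript of *Fn1* the largest called rise, at 18123 and 7616. The 8 markers of differentiated smooth muscle, 3 of them members, were mixed. *Myh11* (smooth muscle myosin heavy chain) was near 0 in KD and at 14.9 in WT, and *Myocd* and *Cnn1* had levels of at most 10, whereas *Smtn* was at 5378 in KD and 5808 in WT, *Synpo2* at 245 and 340, and *Des* at 143 and 149. None of these non-member markers was called, while *Actg2* and *Lmod1* were called lower, as described further on. The gene levels of the 4 endothelial markers were 9.29 to 39.4 in KD and 5.42 to 54.1 in WT. Of 4 epithelial markers, *Cdh1* was at 140 in KD and 90.3 in WT and *Krt8* at 17.3 and 29.1, with neither called. The 4 blood markers ranged from 0 to 391 in KD and from 6.32 to 456 in WT, and *Lyz2* was called lower, at 269 and 456. *Tnnt2*, of the 3 striated muscle markers tested, was called higher, with a transcript at 304 in KD and 141 in WT. The part of these markers in the results was not tested.

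The first coding bases of the actin transcripts are shown because the 4 actins are near copies, and the sequence shows how far reads could be told apart. The bases run from the start codon, in capitals, and were read from the annotated transcripts (GENCODE M21, GRCm38); *Actb*, the other cytoplasmic actin, is no member and is shown for comparison.
Acta2: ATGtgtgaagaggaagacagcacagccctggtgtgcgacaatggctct
Actg2: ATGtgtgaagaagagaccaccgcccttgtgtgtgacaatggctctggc
Actg1: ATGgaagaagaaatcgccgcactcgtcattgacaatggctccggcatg
Actb: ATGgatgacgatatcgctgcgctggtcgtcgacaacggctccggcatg
Over the whole coding sequence, *Actg2* was identical to *Acta2* at 84.2% of bases, *Actb* at 82.8% and *Actg1* at 81.5%. Reads are assigned by words of 31 bases, and 98.5% of such words in the *Acta2* transcript and 98.5% of those in *Actg2* occurred in no other annotated gene. The levels of these smooth muscle actins therefore rested on sequence of their own. For *Actg1-202* the share was 42.9%, since processed pseudogenes copy the transcript, among them *Gm12715*, which shared 53.6% of its words and itself had a mean level of 16.7 over the libraries. The SD from read assignment was 0.0041 on the log2 scale for *Actg1-202*, and the tested pseudogenes that share its words had mean levels of at most 35.1.

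Of the 18 member transcripts, 9 were called lower in KD, 1 was called higher and 8 were not called. The 9 lower transcripts came from 6 genes, *Acta2*, *Actg2*, *Tagln*, *Cnn2*, *Cald1* and *Lmod1*, and the higher transcript came from *Tagln2*. Over all transcripts, 5.21% were called lower and 7.26% higher, but nothing is read from this contrast, on which the members were selected. The median log2(fold change) of the member transcripts was -0.71, beside -0.01 for all transcripts. By the deposited Wald q-values 10 member transcripts were called, 9 of them lower, beside 18.2% of all transcripts. By limma's moderated test 9 were called, all lower, beside 9.68% of all transcripts. By the deposited gene q-values, which carry no direction, 8 of the 10 genes were called (*Cnn1* and *Cnn3* were not), beside 24.0% of all genes.

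**Figure D1:**
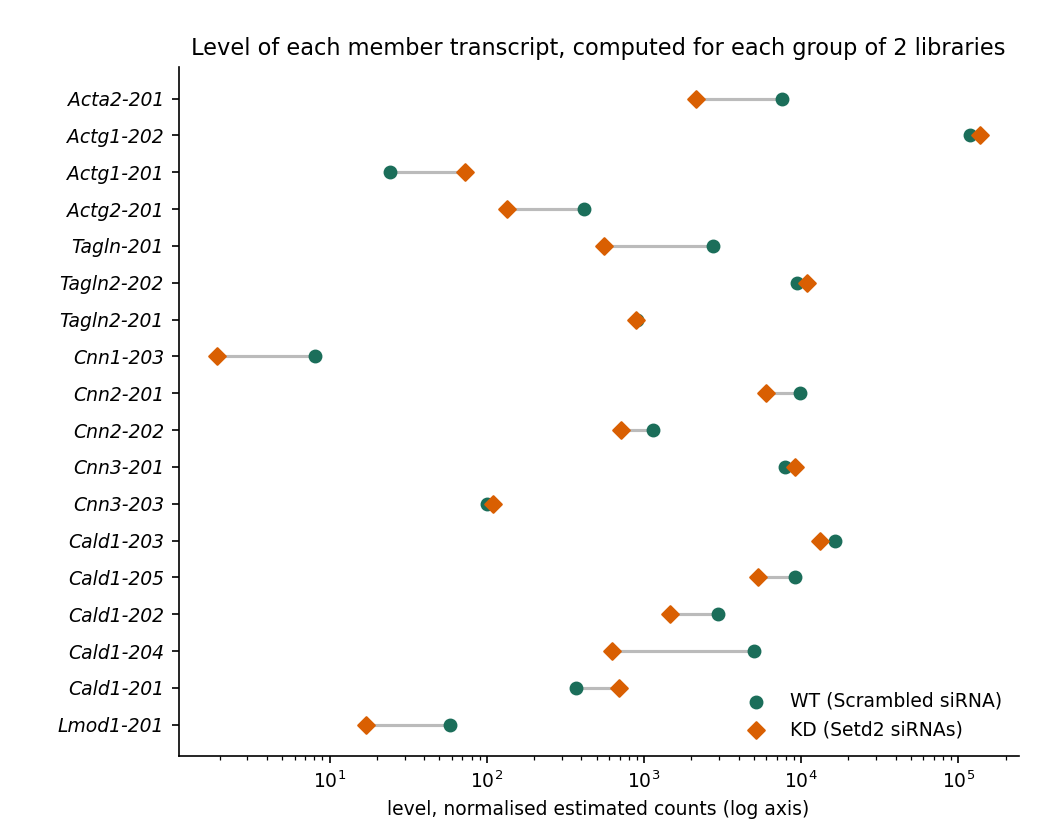
Level of each of the 18 member transcripts in WT (green circles) and KD (orange diamonds), in normalised estimated counts on a log axis; each point is computed for a group of 2 libraries. *Actg1-202* was the most abundant in both groups, *Cnn1-203* the least, and *Tagln-201* fell from 2749 to 560.

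The smooth muscle actins were lower in KD, while the cytoplasmic actins were not, except that *Actg1* was lower relative to *Actb* (log2(fold change) of -0.24). In bulk RNA, fewer cells with these transcripts and less of them in each cell cannot be told apart. *Acta2* (*Acta2-201*, chr19:34241090-34255590, minus strand) had a level of 2131 in KD and 7508 in WT, a log2(fold change) of -1.82 (SE 0.23). That is a change of -71.6%, with a 95% interval of -79.2% to -61.2% computed from the SE. The 2 libraries of a group differed by at most 0.46 on the log2 scale, and the nearest KD and WT libraries were at least 1.49 apart, so the groups did not overlap. *Actg2* (*Actg2-201*, chr6:83512905-83536265, minus strand), the smooth muscle γ-actin of gut and bladder, had a level of 134 in KD and 415 in WT, a log2(fold change) of -1.63 (SE 0.20). The least possible distance between its groups was 1.39. The log2(fold changes) of *Acta2* and *Actg2* differed by -0.19, with a 95% interval of -0.79 to 0.41. This interval takes both SEs as independent, as for all 7 such differences given here. These intervals describe members that were selected on this comparison and test nothing. The data neither separate the falls of *Acta2* and *Actg2* nor show them to be alike.

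*Actg1*, the cytoplasmic γ-actin, was nearly all *Actg1-202* (chr11:120345690-120348542, minus strand), with a level of 137953 in KD and 118594 in WT. Its log2(fold change) was 0.22 (SE 0.11) and its q-value of 0.0798 placed it just outside the threshold. The log2(fold changes) of *Acta2* and *Actg1-202* differed by -2.03 (95% interval -2.54 to -1.53), a description only, since *Acta2* was selected on its fall. The shorter *Actg1-201* had a level of 72.7 in KD and 24.2 in WT, with an SE of 0.73 and a q-value of 0.131. *Actb*, the cytoplasmic β-actin, was called higher, at 113066 in KD and 82423 in WT, a log2(fold change) of 0.46 (SE 0.11). *Acta1*, the skeletal muscle actin, had a level of 25.1 in KD and 29.2 in WT and was not called, and *Actc1*, the cardiac actin, had no tested transcript.

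Per kilobase of transcript, the actins made up a pool in which the cytoplasmic forms dominated. *Actg1* took 56.4% of this pool in WT and 54.1% in KD, and *Actb* took 39.9% and 45.0%. The share of *Acta2* was 3.42% in WT and 0.80% in KD, and that of *Actg2* was 0.289% and 0.0768%. The pool itself summed to 107742 counts per kilobase in WT and 130811 in KD, so the smooth muscle actins were lower in a pool that was not smaller.

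Among the transgelins the smooth muscle gene was lower in KD, and its widely expressed relative was not called lower, except *Tagln2-201* relative to *Actb*. Not all members divided in this way, since *Cnn2*, found in many motile cells, was called lower too. *Tagln* (transgelin or SM22α, *Tagln-201*, chr9:45929619-45936058, minus strand), which bundles actin filaments and is an early marker of smooth muscle, had a level of 560 in KD and 2749 in WT. Its log2(fold change) was -2.29 (SE 0.11), a change of -79.6% (95% interval -82.4% to -76.3%). The 2 libraries of a group differed by at most 0.21, and the least possible distance between the groups was 2.15. Its fall ranked 7 in size among 1644 called falls of transcripts whose mean reached 100 counts. This rank uses the value on which *Tagln* was selected, so nothing is read from it. *Tagln* shared 48.8% of its words with *Gm48529*, an antisense transcript at the same place that had a level of 47.4 in KD and 39.6 in WT. The libraries were stranded, but whether reads were assigned with strand is not given in the sources used here.

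*Tagln2*, the transgelin of non-muscle cells, was mostly *Tagln2-202* (chr1:172500047-172507380, plus strand), with a level of 10892 in KD and 9402 in WT. Its log2(fold change) was 0.21 (SE 0.08), and its q-value of 0.0473 placed it just inside the threshold, as the only member transcript called higher. Centred on transcripts of like GC content its log2(fold change) was 0.00, and relative to *Actb* it was -0.24, so its direction depends on the scaling. *Tagln2-201* had a level of 892 in KD and 909 in WT and was not called, and its groups overlapped. The log2(fold changes) of *Tagln* and *Tagln2-202* differed by -2.51 (95% interval -2.77 to -2.24), a description only, since *Tagln* was selected on its fall. Per kilobase, *Tagln* made up 19.3% of the transgelin pool in WT and 4.15% in KD.

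**Figure D2:**
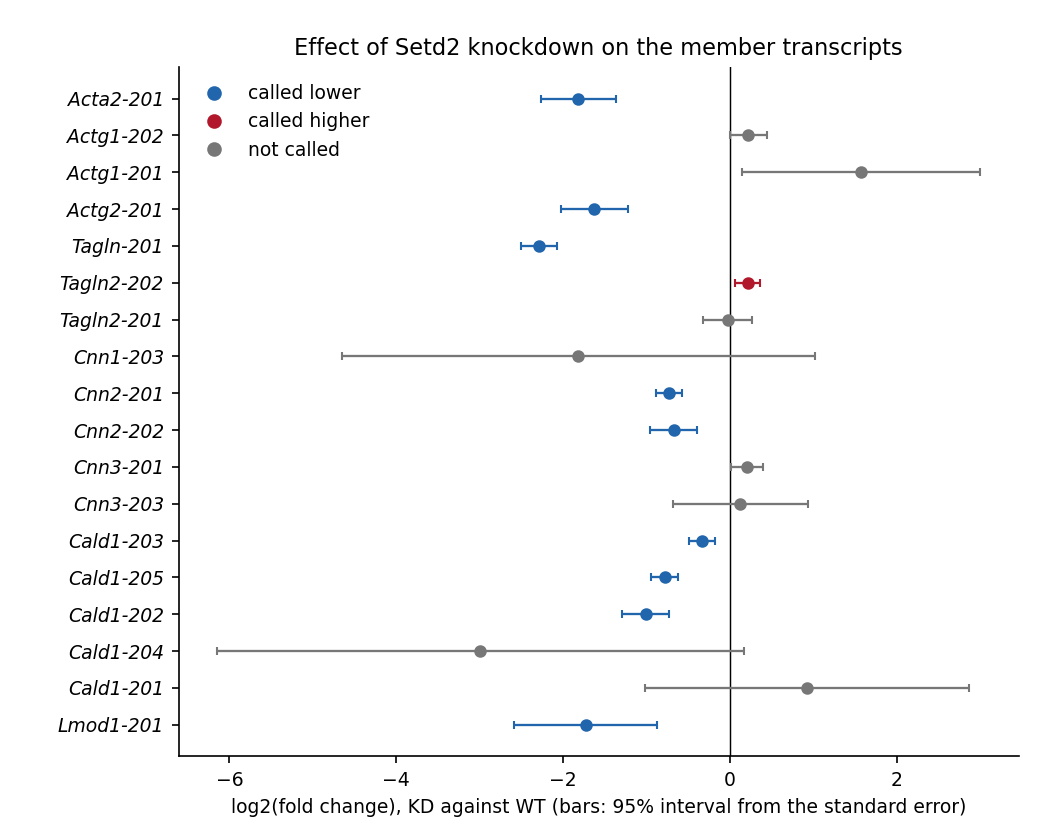
log2(fold change) of each member transcript, KD against WT, with its 95% interval from the deposited SE; blue points were called lower, the red point higher and grey points were not called. *Acta2-201*, *Actg2-201*, *Tagln-201* and *Lmod1-201* lie between -1.63 and -2.29, the cytoplasmic relatives *Actg1-202*, *Tagln2-202* and *Cnn3-201* between 0.20 and 0.22 (below 0 relative to *Actb*), and the widest bars belong to *Cald1-204* and *Cnn1-203*.

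Calponins bind actin filaments and restrain myosin. *Cnn1*, the calponin of smooth muscle, was tested only in *Cnn1-203* (chr9:22099216-22108334, plus strand), of 238 codons. The longer *Cnn1-201*, of 297 codons, was not tested. *Cnn1-203* was barely present, with a level of 1.91 in KD and 8.03 in WT, an SE of 1.45 on the log2 scale and a q-value of 0.378. A difference in *Cnn1-203* was not detectable at this level. *Cnn2*, found in smooth muscle and in many motile cells, had both of its tested transcripts called lower. *Cnn2-201* (chr10:79988584-79996062, plus strand) had a level of 5950 in KD and 9900 in WT, a log2(fold change) of -0.73 (SE 0.08) or a change of -39.9% (95% interval -46.0% to -33.1%). Its groups were at least 0.70 apart, while the 2 libraries of a group differed by at most 0.05. *Cnn2-202*, which starts in the same region and ends earlier, had a level of 714 in KD and 1142 in WT, a log2(fold change) of -0.68 (SE 0.14). The difference between the 2 isoforms was -0.06 (95% interval -0.38 to 0.26), and *Cnn2-201* made up 89.7% of the gene's counts in WT and 89.3% in KD. Only 3.1% of the words of *Cnn2-202* are absent from *Cnn2-201*, so the values of these isoforms may not be independent.

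*Cnn3*, the acidic calponin of non-muscle cells, was not called in either transcript, and the sign of *Cnn3-201* turned to -0.25 relative to *Actb*. *Cnn3-201* (chr3:121426497-121458207, plus strand) had a level of 9127 in KD and 7938 in WT, a log2(fold change) of 0.20 (SE 0.10) with a q-value of 0.115. *Cnn3-203* had a level of 110 in KD and 101 in WT, and whether its groups overlapped could not be determined. Pseudogenes shared sequence with *Cnn3-201* too, and 59.2% of its words were its gene's own. The log2(fold changes) of *Cnn2-201* and *Cnn3-201* differed by -0.94 (95% interval -1.18 to -0.69), a description only, since *Cnn2* was selected on its fall. Per kilobase, *Cnn2* made up 57.0% of the calponin pool in WT and 41.2% in KD, and *Cnn3* made up 42.9% and 58.7%, so the order of these calponins turned.

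*Lmod1*, leiomodin 1, nucleates actin filaments in smooth muscle. *Lmod1-201* (chr1:135324807-135368065, plus strand) had a level of 17.1 in KD and 58.0 in WT, a log2(fold change) of -1.73 (SE 0.44), and the least possible distance between its groups was 1.44. Its level was low, so it dropped out where a mean of at least 100 counts was required.

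**Figure D3:**
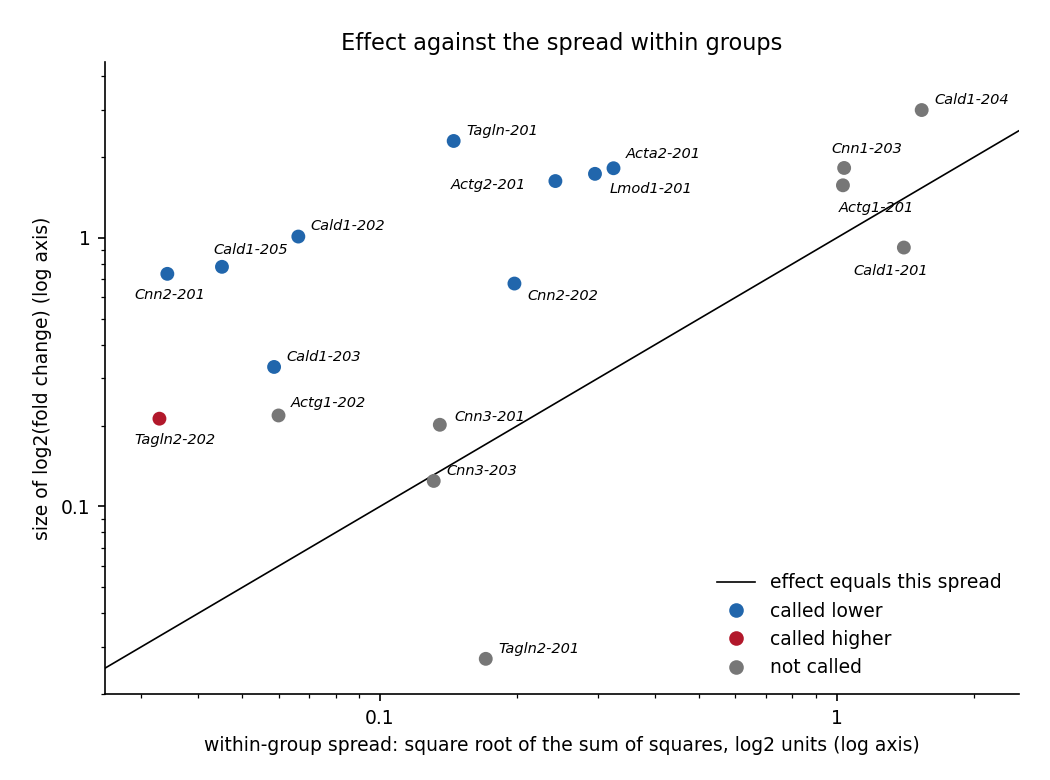
Size of the log2(fold change) of each member transcript (vertical, log axis) against the spread within groups, the square root of the within-group sum of squares in log2 units (horizontal, log axis). For the 15 transcripts above the line KD and WT libraries could not overlap; *Tagln2-201* and *Cald1-201* lie far enough below it that they had to, and *Cnn3-203* lies just below the line, where this could not be determined.

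For 15 of the 18 member transcripts the KD and WT libraries could not overlap, for *Tagln2-201* and *Cald1-201* they had to, and for *Cnn3-203* it could not be determined. Over all transcripts the groups could not overlap for 54.8%, and for 65.3% of those whose mean reached 100 counts, so separation alone was common with 2 libraries a group. Of the 15 separated transcripts, 11 were lower and 4 higher in KD. Among them, *Cnn1-203*, *Actg1-201* and *Cald1-204* had the widest spread and were not called.

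*Cald1* encodes caldesmon, which blocks myosin from actin until it is phosphorylated or bound by calmodulin. Smooth muscle makes a long form with a central stretch that the short form of non-muscle cells lacks. The gene had 5 tested transcripts on chr6, plus strand, of which 3 were called lower. *Cald1-203* (chr6:34709442-34775473) had a level of 13085 in KD and 16455 in WT, a log2(fold change) of -0.33 (SE 0.08). *Cald1-205* (chr6:34598564-34775466) had a level of 5339 in KD and 9169 in WT, a log2(fold change) of -0.78 (SE 0.08). *Cald1-202* (chr6:34598500-34775454) had a level of 1474 in KD and 2972 in WT, a log2(fold change) of -1.01 (SE 0.14). The least possible distances between the groups of these 3 transcripts were 0.27, 0.73 and 0.94, in this order.

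Among the called transcripts, those of the upstream start had the larger falls. *Cald1-202*, *Cald1-204* and *Cald1-205* begin at an upstream start, and *Cald1-203* and *Cald1-201* begin 110.9 kb further on, within the gene. The log2(fold change) of *Cald1-205* differed from that of *Cald1-203* by -0.45 (95% interval -0.67 to -0.22), and that of *Cald1-202* by -0.68 (95% interval -0.999 to -0.362). Isoforms of a gene share reads, so their SEs may not be independent. Summed over the isoforms of a start, the level was 7440 in KD and 17128 in WT for the upstream start, a change of -56.6%, and 13781 and 16823 for the downstream start, a change of -18.1%. The upstream start made up 50.4% of *Cald1* in WT and 35.1% in KD.

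These sums rest in part on *Cald1-204*, whose level was 627 in KD and 4987 in WT but which holds no word of 31 bases that other isoforms lack. The uncertainty of read assignment alone had an SD of 1.61 on the log2 scale for this transcript, and it was not called. *Cald1-201*, with a level of 696 in KD and 368 in WT, was not called either and its groups overlapped. *Cald1-205* is the longest form, with 768 codons, and is the only tested transcript with an exon of 1021 bases. Its last 624 bases, or 208 codons (GRCm38, chr6:34746016-34746639, plus strand), are skipped by the others. The first 90 of these coding bases (chr6:34746016-34746105) are shown because reads of this stretch mark the long form.
Cald1-205: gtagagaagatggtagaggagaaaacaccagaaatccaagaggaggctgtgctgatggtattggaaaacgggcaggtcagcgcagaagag
*Cald1-205* made up 27.0% of the gene in WT and 25.2% in KD. The total behind these shares counts *Cald1-204*, which took 14.7% in WT and 2.95% in KD and whose level is uncertain. How far the share of the long form changed is therefore uncertain too.

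**Figure D4:**
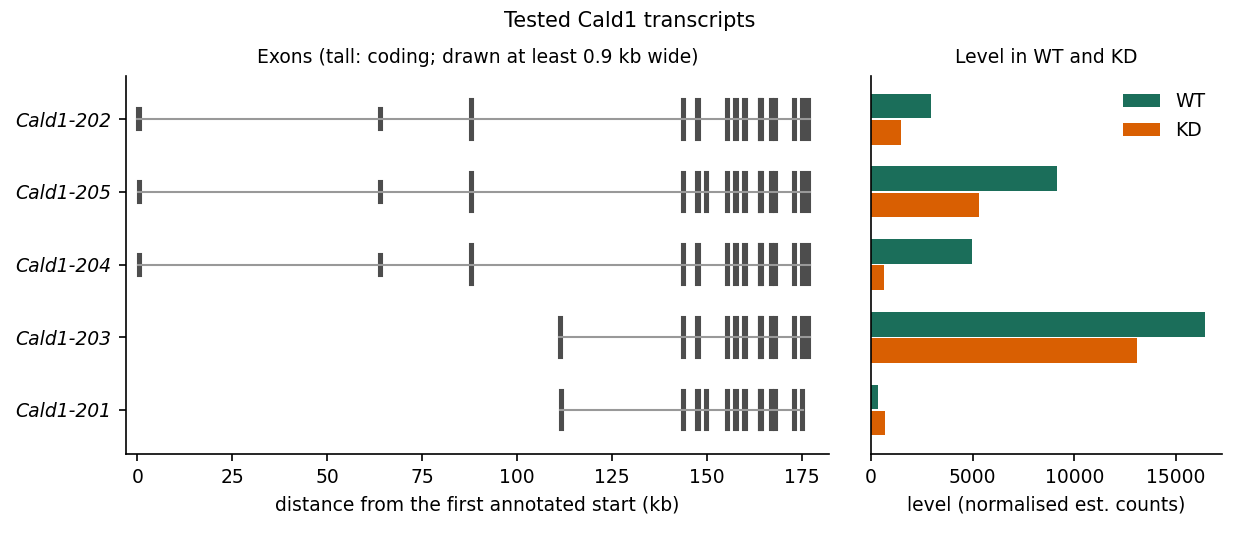
Exons of the 5 tested *Cald1* transcripts by distance from the first annotated start in kb (left; tall boxes hold coding bases, and boxes are drawn at least 0.9 kb wide), and the level of each in WT (green) and KD (orange) in normalised estimated counts (right; bars start at 0 and have no error bar, since each is computed for a group). The 3 upper transcripts begin at the upstream start and the 2 lower ones 110.9 kb further on, and *Cald1-203* is the most abundant in both groups.

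A CArG box, searched here as CC, then 6 bases that are each A or T, then GG, was looked for in the promoters of the members, from 250 bases before to 50 bases after each RefSeq start (GRCm38.p6). The motif is its own reverse complement, so a match counts on both strands. Windows were given for 8 of the 10 genes (all but *Tagln* and *Actg2*), 9 windows in all, since *Cald1* has a window at each start. A box was found in 2 of the 9 windows, those of *Cnn2* and *Actg1*, beside 1.63% of 32851 windows of all genes. They are shown, with the box in capitals and on the strand of the gene, because one belongs to a gene that was called lower and the other to a gene that was not.
Cnn2 (GRCm38.p6, chr10:79988350-79988649, plus strand): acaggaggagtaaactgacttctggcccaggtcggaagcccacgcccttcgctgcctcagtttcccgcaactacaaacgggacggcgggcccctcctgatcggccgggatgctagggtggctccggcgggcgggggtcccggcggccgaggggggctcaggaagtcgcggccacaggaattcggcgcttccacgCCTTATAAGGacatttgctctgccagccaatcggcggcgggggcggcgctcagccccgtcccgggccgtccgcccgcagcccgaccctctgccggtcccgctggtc
Actg1 (GRCm38.p6, chr11:120348446-120348745, minus strand): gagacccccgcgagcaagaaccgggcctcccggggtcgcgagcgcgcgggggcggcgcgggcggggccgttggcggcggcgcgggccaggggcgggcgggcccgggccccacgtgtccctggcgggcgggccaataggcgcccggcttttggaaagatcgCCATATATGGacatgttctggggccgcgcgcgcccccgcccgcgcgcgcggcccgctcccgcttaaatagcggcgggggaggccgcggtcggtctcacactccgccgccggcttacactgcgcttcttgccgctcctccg
The box of *Cnn2* begins 56 bases and that of *Actg1* 90 bases upstream of the RefSeq start. The RefSeq start of *Acta2* lies 217 bases downstream of the start of the tested transcript and that of *Tagln2* lies 199 bases downstream, so their windows hold only 33 and 51 bases before the annotated start of the tested transcripts. The search also allowed no other inner base. The window of *Acta2* holds ccctatatgg and ccttgtttgg, each with a single inner base that is neither A nor T, and neither was counted. Such near matches were not searched for in the other windows. A match is a description of the letters, and no match says only that these exact letters are not in the window.

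Other genes of the same pathway were taken from lists that were written with earlier results known and that hold none of the members. Of 28 other genes known as targets of SRF and MRTFs, most but not all of them cytoskeletal, 27 were tested with 82 transcripts. Of these transcripts 22 (26.8%) were called lower and 8 (9.76%) higher, beside 5.21% lower and 7.26% higher over all transcripts. The median log2(fold change) of the genes was -0.24, beside -0.03 for all genes. By gene, 14 had a transcript called lower and 7 had a transcript called higher, with 2 genes in both counts. By the Wald test 25 of these transcripts were called lower and 10 higher, and by the same test relative to *Actb* 37 were called lower and 1 higher. The share of all transcripts called relative to *Actb* is not given, here or for the lists that follow. The largest called fall was that of a transcript of *Flna*, encoding filamin A, which crosslinks actin filaments (ENSMUST00000114299.7), at 1622 in KD and 4658 in WT, a log2(fold change) of -1.52 (SE 0.27). Summed over its 3 tested transcripts, *Flna* had a level of 48704 in KD and 49855 in WT. The largest called rise was that of a transcript of *Pdlim5*, encoding a LIM domain protein of the Z-line (ENSMUST00000196908.4), at 321 in KD and 79.8 in WT, a log2(fold change) of 2.00 (SE 0.36). Another of its 8 tested transcripts was called lower, and the gene summed to 9787 in KD and 13378 in WT. *Ccn1*, a matricellular gene induced by serum, was chosen after its values were seen, with a level of 10769 in KD and 26717 in WT, and its transcript was called lower.

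The regulators of the pathway were called in both directions. By the Wald test 7 transcripts were called higher and 7 lower, and by the same test relative to *Actb* 2 were called higher and 19 lower. All 20 genes listed as regulators of SRF and its cofactors were tested with 50 transcripts, of which 5 (10.0%) were called higher and 5 (10.0%) lower, with a median of 0.04 for the genes. *Cfl2*, encoding a cofilin that severs actin filaments, was the largest called rise, with 7648 in KD and 3325 in WT, and a transcript of *Limk2*, encoding a kinase that inactivates cofilins, was the largest called fall, with 447 in KD and 776 in WT (gene sums of 1997 and 2576). *Srf* had a level of 2310 in KD and 2320 in WT and was not called; it was chosen after its values were seen.

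Other genes of differentiated smooth muscle had few calls. Of 18 such genes 13 were tested with 25 transcripts, of which 0 were called lower and 1, of *Itga8* (integrin α8), was called higher, at 398 in KD and 225 in WT. At an unadjusted p under 0.05, Sleuth's likelihood ratio test had 4 of these transcripts lower and 3 higher. limma's moderated test called 2 lower and 2 higher. The Wald test called 0 lower and 1 higher, and relative to *Actb* it called 6 lower and 0 higher. General actin-binding genes (33 of 34 tested, 68 transcripts) had 11 transcripts (16.2%) called higher and 7 (10.3%) called lower, with a median of 0.11 for the genes. The Wald test called 15 of their transcripts higher and 9 lower, but relative to *Actb* it called 21 lower and 0 higher. Their largest called rise was a transcript of *Arpc4*, a subunit of the Arp2/3 complex, with 616 in KD and 279 in WT (gene sums of 11023 and 7894), and their largest called fall was a transcript of *Tmsb4x* (thymosin β4, which sequesters monomeric actin), with 178 in KD and 357 in WT (gene sums of 9951 and 12714). Over all transcripts whose mean reached 100 counts, 8.74% were called lower and 12.7% higher, and the member counts at that level were 8 and 1 of 15.

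**Figure D5:**
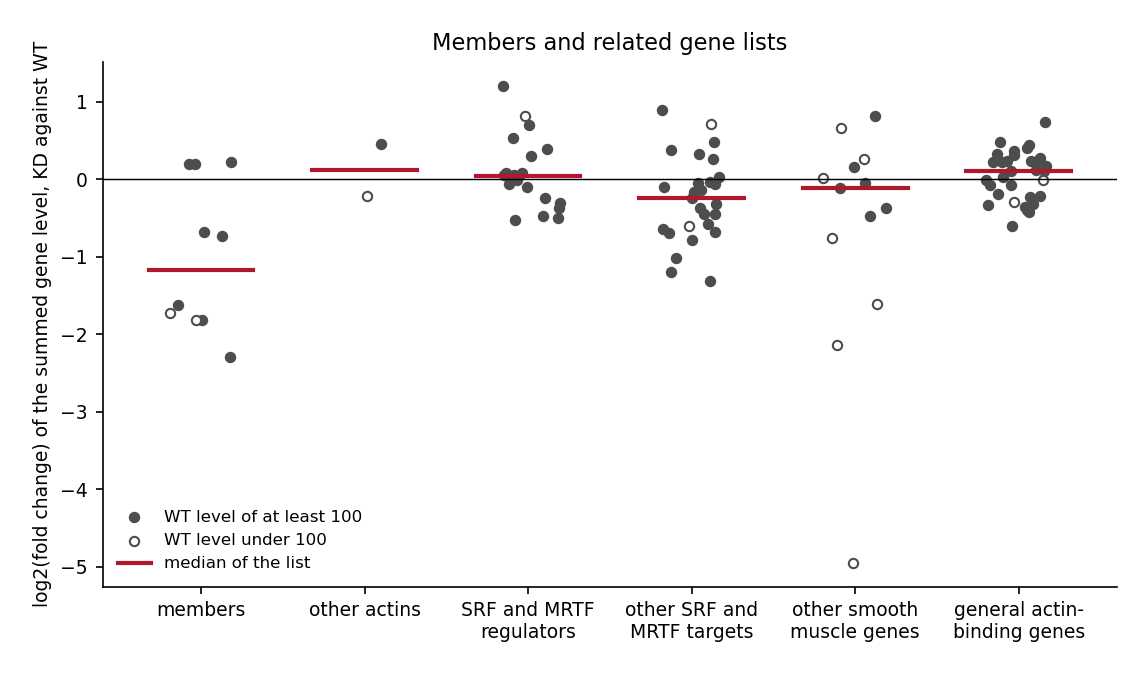
log2(fold change) of the level of each gene, summed over its tested transcripts, KD against WT, for the 10 members and the tested genes of 5 related lists; filled points have a WT level of at least 100, open points a lower one, and red bars are the list medians. The members lay near 0.20 or between -0.68 and -2.29. The lower ones include *Cnn1*, at -1.82, which was not called, with levels of only 1.91 in KD and 8.03 in WT. The lowest open point is *Myh11*, whose KD level was near 0, so that its fold is not a measured size.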

How the data were processed

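Polyadenylated RNA of 2 KD and 2 WT libraries was sequenced on 1 lane, per the study's methods. The authors removed adapters with BBDuk, estimated transcript counts with Kallisto and compared the groups with Sleuth; the submitters' processing notes also list HISAT2 and bcl2fastq 2.17. The deposited effects, standard errors, means and variances are on the natural log scale, made by the authors from normalised estimated counts plus 0.5. The p-values and q-values that the authors deposited come from Sleuth's likelihood ratio test, its Wald test and, for genes, a combination over transcripts. The score in the deposited table is Sleuth's test statistic and was not used.

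These columns hold the authors' own comparison. No values of single libraries were used here, so depth is unknown and neither counting intervals nor tests over single libraries were made. The planned analysis used these columns as they are, since they are the only measurements in the files.

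Division by the natural log of 2 gave log2(fold changes). Levels were computed as the exponential of the mean plus or minus 0.5 times the effect, minus 0.5, and summed for genes. The within-group sum of squares was 3 times the deposited variance minus the squared effect. limma 3.58.1 (R 4.3.3) was applied to these variances with 2 residual degrees of freedom and a trend on the mean, after tests on simulated data. Transcripts were matched to GENCODE M21 (GRCm38) by identifier, and 17 of 18 members had the same version; *Acta2-201* differed in version. Promoters came from RefSeq. Sequence words of 31 bases were compared over all annotated transcripts.

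The members and lists were chosen with earlier results of these data known. The text names all members, *Setd2*, members beside the threshold, the called transcripts with the largest rise and fall of each related list, every gene of the related list of other actins, and genes said to be chosen after their values were seen. Lists of cell type markers are given by counts and ranges, with examples chosen after their values were seen.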

Additional observations from a re-analysis of the deposited data

How the results depend on the processing

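No paired analysis was possible because the deposited tables hold no column for a single library, and for the same reason no library could be left out in turn. The same 7 member transcripts (*Acta2-201*, *Actg2-201*, *Tagln-201*, *Cnn2-201*, *Cnn2-202*, *Cald1-202* and *Cald1-205*) were called lower under all 7 settings. These were the main one, the Wald q-values, limma's moderated test and a mean of at least 100 counts. The others, by the Wald test, were effects centred on the median of all transcripts, centred on GC content or taken relative to *Actb*. Every setting reuses the effects on which the gene group was selected, so calls that stay test nothing. *Cald1-203* was not called with GC centring, and *Lmod1-201* was not called with at least 100 counts, which left it out. *Tagln2-202* was called in 4 of 7 settings, and its log2(fold change) turned to -0.24 relative to *Actb*, which shifts every effect by 0.46. The number of called members was 8 to 10 in every setting, gene q-values included (an alternative chosen after seeing the data). Shares of all transcripts or genes are given only for the main, Wald, limma and gene q-values. Nothing is read from the member counts in the other settings. The median log2(fold change) of the members moved from -0.71 to -1.16 relative to *Actb*, and to -1.18 where levels were summed for each gene, since *Cald1* and the other genes with several transcripts then count once. Calls of the related lists were 60 (26 higher, 34 lower) in the main setting. By the Wald test they were 75 (34 higher, 41 lower) as deposited and 74 (34 higher, 40 lower) centred on the median of all transcripts. By the same test they were 65 (29 higher, 36 lower) centred on GC content. Relative to *Actb*, which was itself called higher, they were 86 (3 higher, 83 lower) by this test, so their directions changed with that reference. *Actg1-202* was called only with at least 100 counts, and *Tagln2-201* only relative to *Actb*. The depth of each library is unknown, and the widest intervals among the members were those of *Cald1-204* and *Cnn1-203*.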
